A study of Mus musculus with 8 samples.

Results

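The mitochondrial carriers of the SLC25 family, the proteins that move metabolites across the inner mitochondrial membrane, were followed in the kidney of mice after ischaemia and reperfusion, with and without a prior injection of a miR-5100 mimic. The members are the genes that the array names Slc25a followed by a number. That gave 46 of the 36826 genes named on the array, with 1 further gene of the family not reported here. Of the 46, 42 were tested, among 21264 genes in all, because a probe of theirs was clearly above background in both mice of some group. The 4 untested members, Slc25a2, Slc25a31, Slc25a41 and Slc25a54, were not above background on any of the 8 arrays.

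The left kidney of 8 mice was taken 24 h after surgery and measured on 1-colour Agilent arrays, with 2 mice in each of 4 groups. Mimic mice (6 and 7) received 5 nmol of the miR-5100 mimic, carried by polyethyleneimine nanoparticles (PEI-NPs), by tail vein 2 days before IRI-AKI, which is removal of the right kidney and a 45 min clamp of the left one followed by reperfusion. Control-miRNA mice (1 and 5) received a control miRNA on the same carrier at the same dose and had the same operation. IRI mice (30 and 34) had the operation without a described injection, and sham mice (1 and 4) had a midline incision with no nephrectomy or clamp. All 6 injured mice therefore also lack the right kidney, which sham mice kept. The design text states once that every model was injected but describes an injection in the mimic and control-miRNA protocols only. Strain, sex and age are not given in the sources used here, and the mouse numbers were read as separate animals. Values below follow the mouse order just given within each group.

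SLC25 carriers are membrane proteins encoded in the nucleus and imported into mitochondria, where most sit in the inner membrane and exchange one metabolite for another. They hand ADP, ATP and phosphate to and from the ATP synthase, run the malate-aspartate shuttle, and bring in cofactors, amino acids, iron and glutathione. The proximal tubule of the kidney is rich in mitochondria and depends on oxidative metabolism for reabsorption, and it is the segment most exposed to ischaemic injury. The injected mimic has the sequence of mature mouse miR-5100, shown here from RefSeq (GRCm38.p6, chr11:60728698-60728718, plus strand) because it defines the treatment. Capitals mark the seed, bases 2 to 8, with which a miRNA pairs to its targets.
mmu-miR-5100: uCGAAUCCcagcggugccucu

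A level is the log2 of the background-subtracted signal minus the log2 of that array's 75th percentile, so 0 is that percentile, and levels of different genes are not comparable. Errors of log2 differences are standard errors from limma, and a member is called when its Benjamini-Hochberg adjusted p over 21264 genes is under 0.05. Precision is limited throughout by the number of arrays, 2 a group. The mimic arrays were the dimmest, with a 75th percentile signal of 308 and 242, against 500 and 416 for control-miRNA, 468 and 599.8 for IRI and 408 and 476 for sham arrays. The mimic mice also differed most from each other. Over the 42 members, the SD of one mouse minus the other was 0.78 for mimic, 0.35 for control-miRNA, 0.23 for IRI and 0.21 for sham mice on the log2 scale. All 12 proximal tubule markers and all 10 distal nephron markers passed the filter, so the samples carried the markers of kidney. Proximal tubule markers summed to 449 and 712 times the array's 75th percentile in mimic, 488 and 589 in control-miRNA, 480 and 535 in IRI, and 1740 and 1730 in sham kidneys. In bulk tissue, fewer cells of a type and less RNA per cell cannot be told apart.

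Injury alone was compared first, IRI against sham, which asks how the carriers stood a day after ischaemia. Slc25a24 and Slc25a25, both calcium-regulated carriers that exchange ATP-Mg for phosphate, rose, and Slc25a11, Slc25a29, Slc25a36, Slc25a40 and Slc25a42 fell. The 7 called members are 2 rises (4.76% of the 42) and 5 falls (11.9%), while 18.3% of all genes were called, 9.45% as higher and 8.85% as lower. Called falls numbered 2 with median scaling, with no filter on dim probes or with slide column as a covariate. The column covariate separates only the 2 mice of a group, so it leaves the differences themselves unchanged. Of the 42 differences 32 were below 0, as were 55.5% of those of all genes, and their median was -0.34, against a median of -0.08 over all genes. When each array was scaled to its median instead, both medians shifted up together, to -0.17 for the members and 0.09 for all genes.

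Slc25a24 had the lowest adjusted p among the members. Its levels were 2.23 and 2.03 in IRI and -1.92 and -1.58 in sham kidneys. The IRI values lay 3.88 ± 0.28 log2 units above sham, or 14.7-fold, with a limma adjusted p of 0.000982. Slc25a24 also stood at 2.15 and 1.34 in mimic kidneys, with 2.35 and 2.23 in control-miRNA kidneys, so every injured kidney was far above both sham kidneys. A single kept probe measured this gene.

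Slc25a25 was likewise higher in every injured kidney. Its levels reached 3.98 and 3.91 in IRI, against 0.67 and 1.02 in sham kidneys, a difference of 3.1 ± 0.38 (8.6-fold, limma adjusted p = 0.00398). All 3 of its other probes agreed in sign, with differences of 2.64 to 3.31. Mimic kidneys measured 2.99 and 1.73 for Slc25a25, and 3.28 was the level in either control-miRNA kidney, so the mimic mice were the lowest of the injured mice. Both rises passed the test in each alternative processing and with each array left out in IRI against sham. The other tested member of this carrier subgroup, Slc25a23, was not called, at -2.42 and -2.81 in IRI against -1.93 and -2.01 in sham kidneys (adjusted p = 0.354).

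The sequence upstream of the RefSeq transcription starts is given for the 4 members that were called in all 3 comparisons with sham and differed by at least 2-fold in IRI. Each run is the 250 bases before the start, 5′ to 3′ on the gene's strand, in GRCm38.p6. Capitals mark a cAMP response element (TGACGTCA) or an E-box (CACGTG), searched on both strands together with the NRF1 motif and the ERR motif (TCAAGGTCA). Slc25a25 has 3 annotated starts, of which the one holding a motif is shown.
Slc25a24 (chr3:109122899-109123148, plus strand): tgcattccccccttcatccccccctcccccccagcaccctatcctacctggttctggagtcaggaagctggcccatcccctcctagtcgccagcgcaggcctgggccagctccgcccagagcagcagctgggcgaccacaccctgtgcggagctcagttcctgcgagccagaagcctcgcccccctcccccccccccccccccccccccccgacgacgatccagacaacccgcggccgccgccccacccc
Slc25a25 (chr2:32424067-32424316, minus strand): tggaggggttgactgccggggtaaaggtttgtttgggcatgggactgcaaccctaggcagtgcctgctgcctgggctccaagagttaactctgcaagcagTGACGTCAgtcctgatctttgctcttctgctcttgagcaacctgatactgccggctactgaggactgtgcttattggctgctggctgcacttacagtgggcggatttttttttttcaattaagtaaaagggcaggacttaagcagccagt
Slc25a29 (chr12:108835877-108836126, minus strand): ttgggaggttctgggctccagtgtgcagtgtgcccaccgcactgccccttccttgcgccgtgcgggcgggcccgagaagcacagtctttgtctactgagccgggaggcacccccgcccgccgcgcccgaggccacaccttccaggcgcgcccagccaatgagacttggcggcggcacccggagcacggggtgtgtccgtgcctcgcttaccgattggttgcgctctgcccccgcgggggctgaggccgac
Slc25a36 (chr9:97111042-97111291, minus strand): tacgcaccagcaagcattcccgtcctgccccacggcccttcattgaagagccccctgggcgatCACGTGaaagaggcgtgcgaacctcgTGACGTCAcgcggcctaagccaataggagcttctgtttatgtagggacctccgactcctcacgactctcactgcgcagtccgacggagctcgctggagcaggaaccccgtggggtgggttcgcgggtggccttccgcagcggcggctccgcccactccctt

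The cAMP response element lies 150 to 143 bases before this start of Slc25a25, and 161 to 154 bases before the start of Slc25a36, a gene that fell. The windows of Slc25a24 and Slc25a29 hold none of the 4 motifs. Shares of windows were counted over the whole RefSeq window, 250 bases before to 50 bases after the start. Such windows were found for 35 members, 45 windows in all. The cAMP response element was in 2 of these 45 windows and in 1.79% of all 32851 windows, the E-box in 8 and in 7.15%, the NRF1 motif in 2 and in 4.6%, and the ERR motif in 0 and in 0.423%. These matches describe letters in a window only. The members lie on 19 chromosomes, and among them Slc25a24 neighbours Slc25a54, which was not above background, and Slc25a29 neighbours Slc25a47 in the GRCm38 gene order, with 1 annotated gene between each pair.

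**Figure D1:**
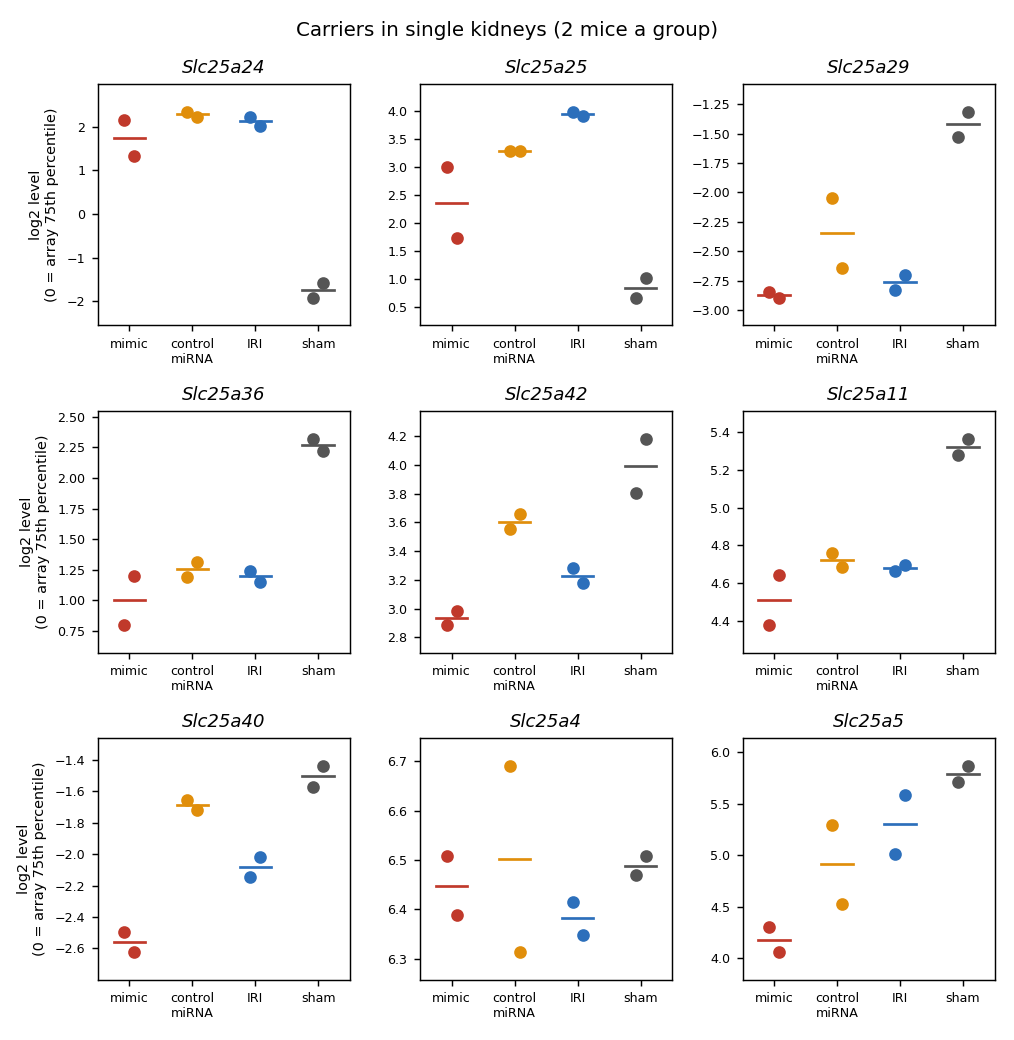
Log2 levels of 9 carriers in single kidneys, each panel with its own vertical axis, where 0 is the 75th percentile of the array. Points are mice (2 a group, mimic, control-miRNA, IRI and sham left to right) and lines are group means. Slc25a24 and Slc25a25 are high in all 6 injured kidneys, and Slc25a29, Slc25a36, Slc25a42, Slc25a11, Slc25a40 and Slc25a5 are lower there than in both sham kidneys, while Slc25a4 overlaps.

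The falls were spread over several transport roles. Slc25a29, a carrier of basic amino acids such as arginine and lysine, had levels of -2.83 and -2.70 in IRI and -1.53 and -1.31 in sham kidneys, which is 2.53-fold lower in IRI (log2 difference -1.34 ± 0.23, limma adjusted p = 0.0109). Slc25a36, a pyrimidine nucleotide carrier, stood at 1.24 and 1.15 in IRI and 2.32 and 2.22 in sham kidneys, a difference of -1.07 ± 0.19 (adjusted p = 0.0117). Its 3 other probes gave -1.23 to -0.98, so all 4 probes moved alike. Slc25a42, which imports coenzyme A, measured 3.28 and 3.18 in IRI and 3.81 and 4.18 in sham kidneys (-0.77 ± 0.18, adjusted p = 0.0318).

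Smaller falls were seen for 2 further members. Slc25a11, the oxoglutarate-malate exchanger of the malate-aspartate shuttle, was at 4.66 and 4.70 in IRI and 5.28 and 5.36 in sham kidneys (-0.64 ± 0.16, limma adjusted p = 0.0389). Slc25a40, a paralogue of the glutathione carrier Slc25a39, was at -2.15 and -2.02 in IRI and -1.57 and -1.44 in sham kidneys (-0.58 ± 0.16, adjusted p = 0.0467). The call of Slc25a40 was lost in 14 of 19 alternative settings, among them normexp, quantile normalization, the mean of its probes (-0.45, adjusted p = 0.125) and the deposited series table, and those of Slc25a11 and Slc25a42 in 11 of 19 each. For none of these 5 falls did the IRI and sham values overlap, but 38.7% of all genes were likewise lower in IRI without overlap. The calls of the 5 falls rest on all 4 arrays compared, and each was lost when any 1 of these was left out. Such fits leave 1 mouse in a group, and calls over all genes also became far fewer. Over single arrays left out, the differences were -1.45 to -1.23 for Slc25a29, -1.12 to -1.03 for Slc25a36 and -0.953 to -0.578 for Slc25a42. For Slc25a11 they were -0.683 to -0.598, and for Slc25a40 -0.644 to -0.51. Calls of members and of all genes were also fewer without a control-miRNA array and more numerous without a mimic array. These arrays enter only through the shared estimate of the spread.

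The adenine nucleotide and phosphate carriers, which serve the ATP synthase, showed no call in IRI against sham. Slc25a4, the adenine nucleotide translocase of heart and muscle type, had levels of 6.42 and 6.35 in IRI and 6.47 and 6.51 in sham kidneys (-0.11 ± 0.18, limma adjusted p = 0.706), and its sign turned to 0.07 with median scaling. Slc25a5, the more widely expressed translocase, had 5.01 and 5.59 in IRI and 5.71 and 5.87 in sham kidneys (-0.49 ± 0.31, adjusted p = 0.303). Slc25a3, the phosphate carrier, had 5.78 and 5.81 in IRI and 6.00 and 6.04 in sham kidneys (-0.23 ± 0.17, adjusted p = 0.374). A p that misses the threshold does not show that these levels were equal.

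In the remaining role groups few members were called. Among 4 di- and tricarboxylate carriers Slc25a11 alone was called, with differences from -0.83 to 0.46. Of 4 aspartate and glutamate carriers none was called, and they ranged from -0.67 for Slc25a13, the liver-type aspartate-glutamate carrier, to 1.22 for Slc25a22, a glutamate carrier (adjusted p = 0.110). Of 9 nucleotide, cofactor and methyl donor carriers 2 fell, and the only one above 0 was Slc25a17, a peroxisomal cofactor carrier (0.56, adjusted p = 0.0744). The 4 iron and glutathione carriers ranged from -0.58 to 0.34, the 3 uncoupling-protein-like carriers from -0.62 to 0.57 and the 7 carriers without an agreed substrate from -0.85 to 0.25. The -0.85 is that of Slc25a53, which was well above background on both arrays of the sham group only, so it passed the filter through the sham group alone. Slc25a46, which sits in the outer membrane, differed by -0.18. The unadjusted limma p was under 0.05 for 13 of the 42 members and for 34.2% of all genes.

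**Figure D2:**
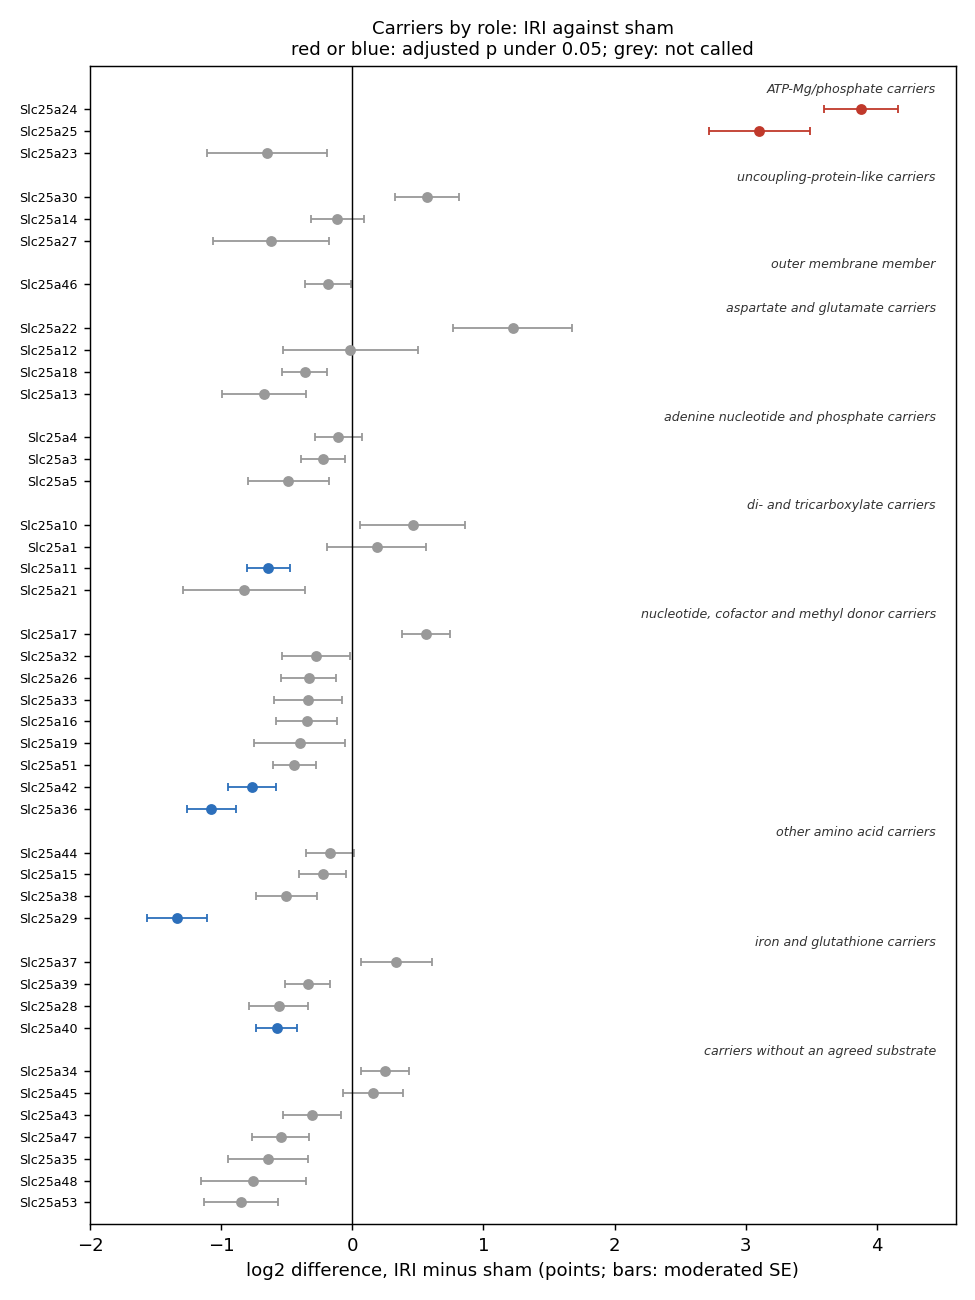
Log2 difference of IRI minus sham for the 42 tested carriers, grouped by what they carry, with bars for the standard error from limma and 2 mice a group. Red and blue points have an adjusted p under 0.05. Slc25a24 (3.88) and Slc25a25 (3.1) lie far to the right of all others, and the 5 called falls lie between -1.34 and -0.58.

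The injured groups that had been injected were then set against sham. In control-miRNA against sham, 3 members were called higher and 3 lower, while 17.3% of all genes were called, 9.55% as higher and 7.79% as lower. The members' median was -0.30, against -0.05 over all genes. Slc25a24 differed by 4.04 ± 0.28 (16.4-fold, limma adjusted p = 0.00121) and Slc25a25 by 2.44 ± 0.38 (5.42-fold, adjusted p = 0.00962). Slc25a17 rose too, with 4.50 and 4.29 in control-miRNA and 3.62 and 3.79 in sham kidneys (0.69 ± 0.18, adjusted p = 0.043). It had 3.83 and 4.13 in mimic and 4.26 and 4.27 in IRI kidneys, so all 6 injured kidneys were above both sham kidneys. A single kept probe measured Slc25a17. Its call was lost with quantile normalization, median scaling, no filter on dim probes, or array brightness or slide column as a covariate.

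The 3 falls in control-miRNA kidneys were Slc25a11, Slc25a29 and Slc25a36. Slc25a36 had 1.19 and 1.32 in control-miRNA kidneys, a difference from sham of -1.02 ± 0.19 (limma adjusted p = 0.0153). Slc25a29 had -2.05 and -2.64 (-0.92 ± 0.23, adjusted p = 0.0363), and Slc25a11 had 4.76 and 4.68 (-0.60 ± 0.16, adjusted p = 0.0486). All values of these 3 members in control-miRNA kidneys were below both sham values, as for 35.6% of all genes. The calls of Slc25a11 and Slc25a29 were each lost with median scaling, no filter on dim probes or slide column, among other settings. That of Slc25a36 was lost with slide column. Fewer members and fewer of all genes were called when a sham, IRI or control-miRNA array was left out, and more of both without a mimic array. In these fits the difference was 3.87 to 4.21 for Slc25a24, 2.26 to 2.62 for Slc25a25 and 0.588 to 0.793 for Slc25a17. It was -1.08 to -0.955 for Slc25a36, -1.22 to -0.625 for Slc25a29 and -0.642 to -0.556 for Slc25a11. Slc25a24 was called in each of these fits.

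In mimic against sham, 2 members were called higher and 13 lower. The 13 falls are 31% of the members, while 28% of all genes were called, 15.2% as higher and 12.8% as lower. The members' median was -0.53, against 0.11 over all genes, and with median scaling -0.81 against -0.17. The members' median was -0.34 without mimic 7 and -0.33 with the mean of all kept probes of a gene. The 3 comparisons share the sham arrays, so their values are given side by side and are not independent. Slc25a24 was 11.2-fold higher in mimic than in sham kidneys (3.49 ± 0.28, limma adjusted p = 0.00136), and Slc25a25 2.85-fold higher (1.51 ± 0.38, adjusted p = 0.0295). Leaving out a sham or IRI array gave fewer called members and fewer called genes over all, and leaving out mimic 6 gave more of both. Without mimic 7 more members but fewer of all genes were called. Over single arrays left out, the difference was 3.09 to 3.9 for Slc25a24 and 0.881 to 2.14 for Slc25a25. Slc25a24 was called in all 18 alternative fits of this comparison, and Slc25a25 in 9 of the 18, with a difference of 0.88 without mimic 6 and 2.44 with array brightness as a covariate (adjusted p = 0.146).

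The members that fell in mimic kidneys without a call in IRI or control-miRNA kidneys included major carriers of the inner membrane. Slc25a5 had levels of 4.30 and 4.06 in mimic kidneys, with 5.30 and 4.52 in control-miRNA kidneys, beside its IRI and sham values above, and differed from sham by -1.61 ± 0.31 (limma adjusted p = 0.0127). Slc25a3 had 5.41 and 5.10 in mimic kidneys, with 5.70 and 5.72 in control-miRNA kidneys (-0.76 ± 0.17 against sham, adjusted p = 0.0188). The mimic values of both genes were below both sham values, as for 29.6% of all genes. However, 2 of the 3 other probes of Slc25a3 gave a positive difference, up to 1.40, and the mean of its probes gave 0.06 (adjusted p = 0.791). Slc25a4 did not pass the test, with 6.51 and 6.39 in mimic kidneys, with 6.69 and 6.31 in control-miRNA kidneys (-0.04 against sham), and that sign turned with array brightness as a covariate (0.20). Its other probe gave -0.86 and the mean of both probes -0.45 (adjusted p = 0.207).

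Slc25a10, the dicarboxylate carrier, had levels of -0.66 and -1.99 in mimic, 0.01 and 0.10 in control-miRNA, 0.75 and 0.95 in IRI, and 0.23 and 0.55 in sham kidneys. Both mimic values were below all 6 others, and the difference from sham was -1.72 ± 0.40 (limma adjusted p = 0.0231). Slc25a13 had 1.55 and 0.96 in mimic, 2.63 and 1.85 in control-miRNA, 2.22 and 2.47 in IRI, and 2.85 and 3.19 in sham kidneys (-1.76 ± 0.32, mimic against sham, adjusted p = 0.0107). Here too both mimic values were the lowest. Of all genes, 29.6% had both mimic values below both sham values. The share was 26.1% against control-miRNA and 29% against IRI values, and the share below all 6 others was not counted. The other kept probe of Slc25a13 gave -0.79.

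Among cofactor and nucleotide carriers, Slc25a16, whose yeast counterpart is linked to coenzyme A supply, had -1.36 and -1.98 in mimic, -0.22 and -0.29 in control-miRNA, -0.32 and -0.19 in IRI, and 0.00 and 0.19 in sham kidneys. The difference of mimic from sham was -1.77 ± 0.23 (limma adjusted p = 0.00413), but the other probe of Slc25a16 gave 0.31. Slc25a33, a second pyrimidine nucleotide carrier, had 0.04 and -0.69 in mimic, 0.93 and 0.78 in control-miRNA, 0.69 and 0.72 in IRI, and 0.88 and 1.21 in sham kidneys (-1.37 ± 0.26, adjusted p = 0.0127). For both genes the mimic kidneys lay below all others, a pattern whose share over all genes was not counted. Slc25a51, the NAD carrier, had 4.77 and 4.81 in mimic, 5.17 and 4.88 in control-miRNA, 4.92 and 4.92 in IRI, and 5.38 and 5.34 in sham kidneys (-0.57 ± 0.16, adjusted p = 0.0429). Slc25a44, a branched-chain amino acid carrier, had -1.66 and -1.36 in mimic, -0.97 and -1.22 in control-miRNA, -1.01 and -0.88 in IRI, and -0.80 and -0.75 in sham kidneys (-0.73 ± 0.18, adjusted p = 0.028), with 0.37 from its other probe. The calls of Slc25a51 and Slc25a44 were each lost in 11 of 18 alternative settings. Among these were the mean of probes, array brightness and a fit of only the 2 groups.

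The 5 members called lower in IRI were called lower in mimic kidneys as well. Slc25a29 had -2.84 and -2.89 (-1.44 ± 0.23 against sham, limma adjusted p = 0.00712), and Slc25a36 had 0.80 and 1.20 (-1.27 ± 0.19, adjusted p = 0.00582). Slc25a11 had 4.38 and 4.64 (-0.81 ± 0.16, adjusted p = 0.0148), with -2.10 from its other probe. These 3, with Slc25a24 and Slc25a25, are the 5 members called in all 3 comparisons with sham, out of 16 called in at least 1. Slc25a40 had -2.50 and -2.62 in mimic kidneys, with -1.66 and -1.72 in control-miRNA kidneys, and its difference of mimic from sham was -1.05 ± 0.16 (adjusted p = 0.00613). Slc25a42 had 2.89 and 2.98 in mimic kidneys, with 3.55 and 3.66 in control-miRNA kidneys (-1.06 ± 0.18 for mimic against sham, adjusted p = 0.00917). Probes disagreed for both, since the other probe of Slc25a40 gave 0.53 and 1 of the 2 others of Slc25a42 gave 0.74.

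**Figure D3:**
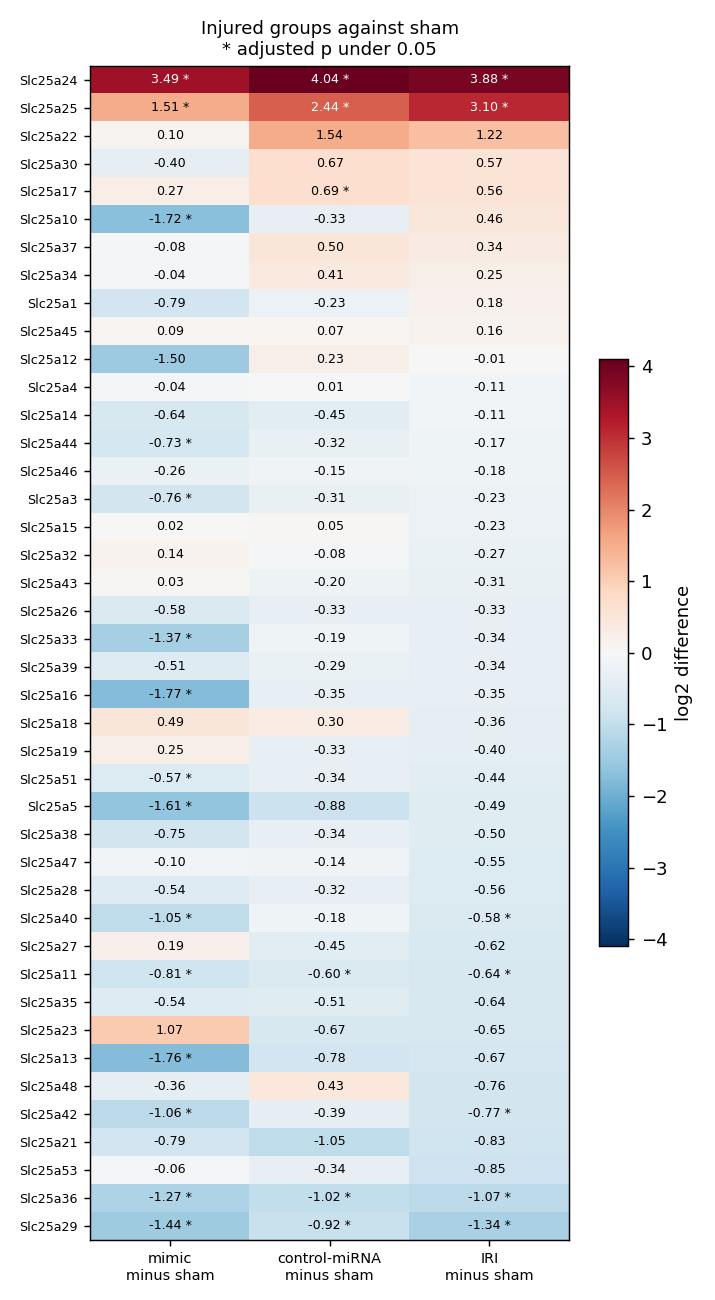
Log2 differences of the 42 tested carriers in mimic, control-miRNA and IRI kidneys, each minus sham (2 mice a group), ordered by the IRI column. Asterisks mark an adjusted p under 0.05, and all columns share the sham arrays. Slc25a24 and Slc25a25 are positive and called in each column, and the mimic column holds 13 called falls.

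Over the 6 injured kidneys together, 16 of 42 members (38.1%) had all 6 levels below both sham levels, against 17.7% of all genes, and 3 (7.14%) had all 6 above, against 17.9% of all genes. The 3 were Slc25a17, Slc25a24 and Slc25a25. Those below included Slc25a3, Slc25a5, Slc25a13 and Slc25a39. Of 12 proximal tubule markers 11 were called lower in each comparison with sham, and all 9 tubular injury markers were called higher. In these comparisons 7.79% to 12.8% of all genes were called lower and 9.45% to 15.2% higher. The proximal tubule markers' median was 0.04 in mimic against control-miRNA and 0.28 in mimic against IRI, where the members' medians were -0.34 and -0.22. Of 10 distal nephron markers, 5 in mimic, 5 in control-miRNA and 6 in IRI kidneys were called lower than in sham, and of 5 macrophage markers 3 were called lower and 1 higher in IRI than in sham. The part of any of these in the carriers' values was not tested. Markers of skeletal muscle, where Slc25a4 is abundant, summed to at most 0.633 times the 75th percentile on any array. That sum leaves out Ckm and Myh1, which did not pass the filter.

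The mimic was next compared with the control miRNA, groups that differ in the sequence of the injected RNA. No member and no other gene was called (0%, limma), while 13 of 42 members and 33.8% of all genes had an unadjusted p under 0.05. The members' median difference was -0.34, against 0.07 over all genes. With median scaling the 2 medians were -0.68 and -0.27, and with array brightness as a covariate -0.17 and -0.03. The lowest p-values among members were those of Slc25a16 (-1.42 ± 0.23), Slc25a40 (-0.87 ± 0.16) and Slc25a33 (-1.18 ± 0.26), with a limma adjusted p of 0.0662 each. For these 3 the levels given above did not overlap between mimic and control-miRNA kidneys, as for 26.1% of all genes in the same direction. The other probe of Slc25a16, however, gave 0.49 and that of Slc25a40 gave 0.95. Without mimic 6, which leaves mimic 7 alone, 18 members were called, 3 higher and 15 lower, as were 29.7% of all genes, and without any 1 of the other 7 arrays 0 were called. Counts above 0 also came with normexp background correction (12 members and 27.4% of all genes) and with only probes above background on all arrays (4 members and 8.28%).

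Against IRI alone, mimic kidneys had 2 members called higher and 5 lower, while 16% of all genes were called, 10.5% as higher and 5.53% as lower. Slc25a10 differed by -2.18 ± 0.40 (4.52-fold lower in mimic, limma adjusted p = 0.0387), Slc25a25 by -1.59 ± 0.38 (adjusted p = 0.0429) and Slc25a33 by -1.03 ± 0.26 (adjusted p = 0.0462). Slc25a16 differed by -1.42 ± 0.23 (adjusted p = 0.0387), with 0.45 from its other probe. The groups did not overlap for any of these 4, nor in the same direction for 29% of all genes. All 3 other probes of Slc25a25 also had negative differences, -2.16 to -0.78. Slc25a30, a carrier described in kidney mitochondria, had 0.13 and -0.34 in mimic, 0.82 and 1.12 in control-miRNA, 0.68 and 1.05 in IRI, and 0.13 and 0.46 in sham kidneys. Its difference of mimic from IRI was -0.97 ± 0.25 (adjusted p = 0.0461), with 1 of 3 other probes of opposite sign.

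The higher members in mimic against IRI were Slc25a23 and Slc25a18. Slc25a23 had -1.61 and -0.19 in mimic, -2.97 and -2.31 in control-miRNA, -2.42 and -2.81 in IRI, and -1.93 and -2.01 in sham kidneys (1.72 ± 0.46, mimic against IRI, limma adjusted p = 0.0492). Both of its other probes gave the opposite sign, -0.59 and -0.18, and with array brightness as a covariate its own difference was -0.44. Slc25a18, a glutamate carrier, had -4.21 and -3.92 in mimic, -4.22 and -4.29 in control-miRNA, -4.95 and -4.90 in IRI, and -4.63 and -4.49 in sham kidneys. It was not well above background on either mimic array, so the call (adjusted p = 0.0387) supports no fold. Without any 1 of the 7 arrays other than mimic 6, 0 of the 42 members were called in mimic against IRI, and without mimic 6 the count was 18, 5 higher and 13 lower, with 35.4% of all genes called.

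**Figure D4:**
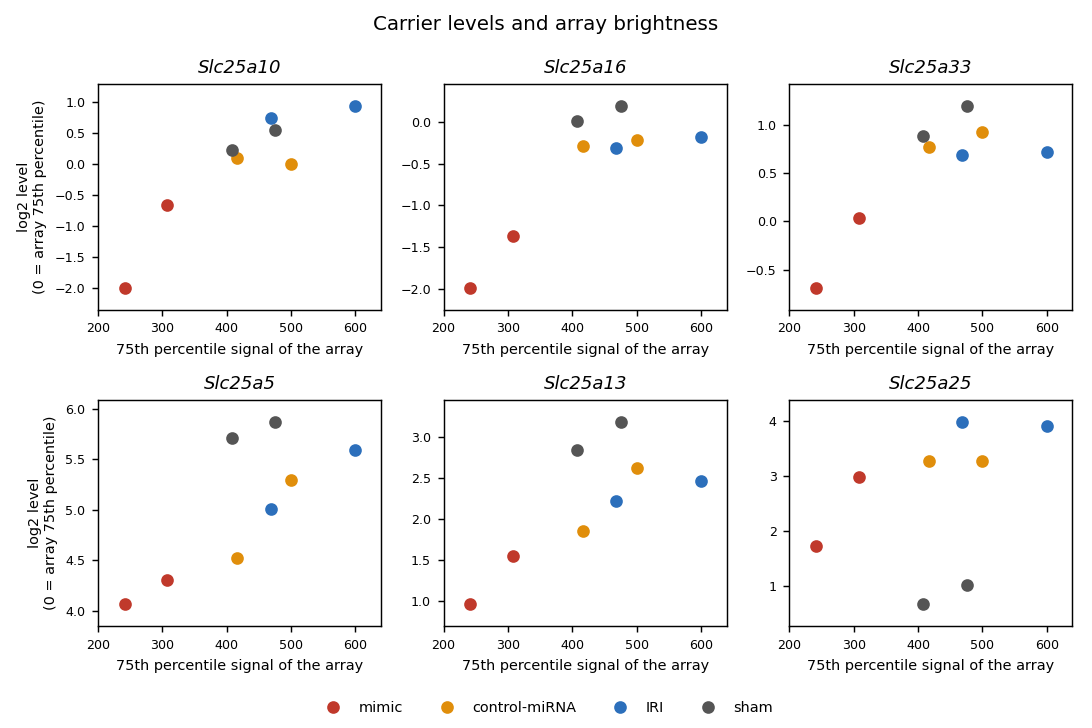
Levels of 6 carriers against the 75th percentile signal of the array, 1 point per kidney and 2 kidneys a group, with the group given by colour. The 2 mimic arrays are the dimmest (242 and 308) and hold the lowest levels of Slc25a10, Slc25a16, Slc25a33, Slc25a5 and Slc25a13. The share of all genes with this pattern was not counted. Slc25a25 in mimic kidneys lies between the sham kidneys and the other injured kidneys.

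Array brightness moved with the mimic group and was therefore also entered as a covariate. With it, 1 of the 15 calls of mimic against sham was left, that of Slc25a24 (4.09, limma adjusted p = 0.0479), and 0 of the 7 in mimic against IRI. The share of all genes called went from 28% to 0.541% in mimic against sham. In mimic against IRI it went from 16% to 0%. The fitted difference of mimic from sham became -0.63 for Slc25a10, -0.62 for Slc25a5 and -0.66 for Slc25a33, while that of Slc25a29 was -0.94 and that of Slc25a36 -1.70. Brightness and mimic treatment cannot be fully told apart in 8 arrays. In mimic against IRI the fitted difference became -0.67 for Slc25a10, -0.30 for Slc25a25, -0.58 for Slc25a16 and -0.05 for Slc25a33. In IRI against sham 4 of the 7 calls were kept with the same covariate, those of Slc25a24 (3.65), Slc25a25 (2.74), Slc25a29 (-1.53) and Slc25a36 (-0.91). Those of Slc25a11 (adjusted p = 0.101), Slc25a40 (0.0566) and Slc25a42 (0.0883) were lost. Of all genes, 18.3% were called in IRI against sham without the covariate and 8.73% with it.

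Probes of the same gene bear on these comparisons too, because 27 members had more than 1 kept probe. In IRI against sham all probes moved one way for 21 of the 27 members, and in control-miRNA against sham for 21. In mimic against sham that held for 13, in mimic against control-miRNA for 9 and in mimic against IRI for 10. Slc25a11, Slc25a13, Slc25a25, Slc25a36 and Slc25a51 are the members called in mimic against sham whose several probes all moved alike. Slc25a3, Slc25a16, Slc25a40, Slc25a42 and Slc25a44 are those whose probes split.

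**Figure D5:**
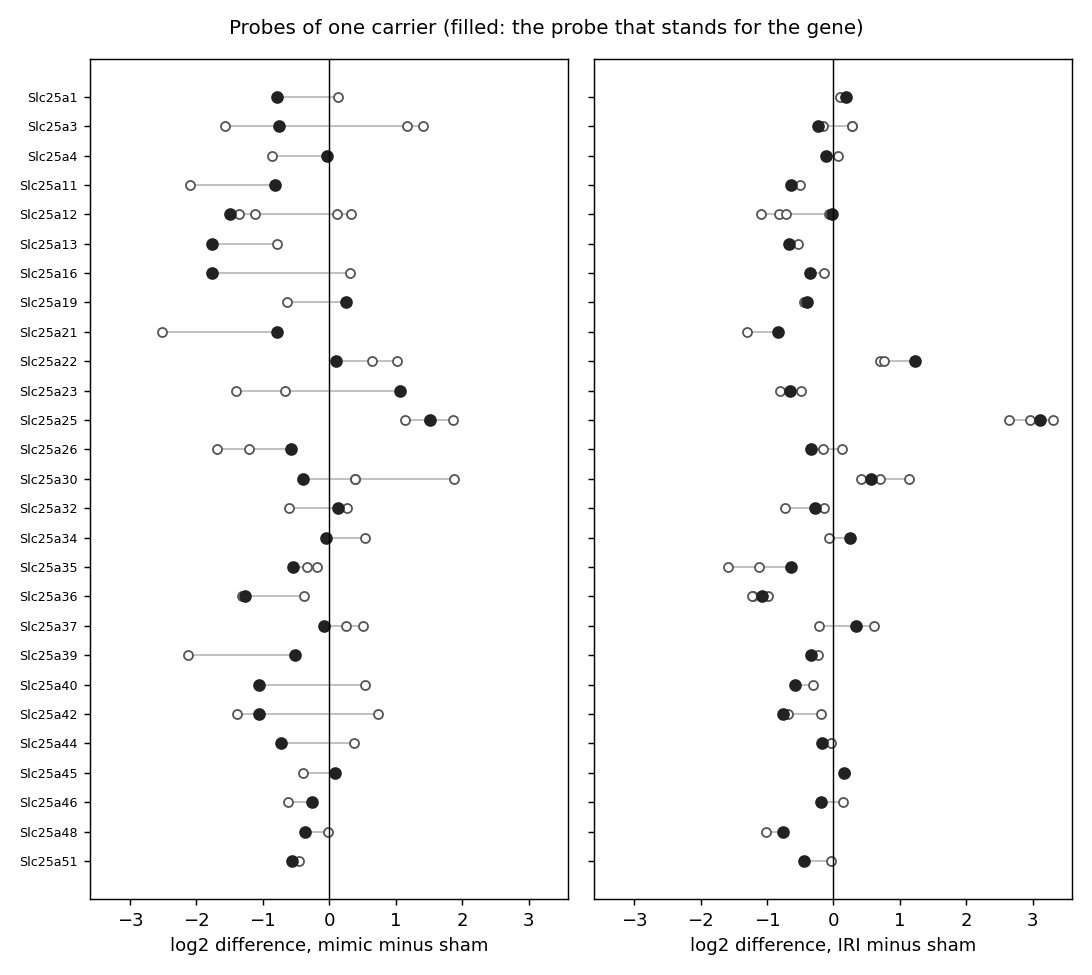
Log2 difference of each kept probe of the 27 carriers with more than 1 kept probe, mimic minus sham on the left and IRI minus sham on the right, from means of 2 mice a group. Filled points are the probe that stands for the gene and open points its other probes. Probes of a gene lie on both sides of 0 for 14 members on the left and 6 on the right.

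Control-miRNA kidneys were compared with IRI kidneys to see whether injection of the carrier with an unrelated RNA went with a difference. No member and no other gene was called (0%, limma), and the unadjusted p was under 0.05 for 3 of 42 members and 4.09% of all genes. The members' median was 0.11, against 0.01 over all genes, and it was -0.01, against -0.11, with median scaling. The lowest p-values were those of Slc25a18 (0.67 ± 0.17, adjusted p = 0.82), Slc25a48 (1.18 ± 0.40, adjusted p = 1) and Slc25a40 (0.40 ± 0.16, adjusted p = 1). Slc25a18 was well above background on both control-miRNA arrays but on only 1 of the 2 IRI arrays, so it passed the filter through the control-miRNA group alone. Slc25a48 had 3.08 and 1.82 in mimic, 3.28 and 3.21 in control-miRNA, 2.34 and 1.77 in IRI, and 2.86 and 2.76 in sham kidneys, so both IRI values were below both control-miRNA values. Slc25a5 overlapped between these groups. Over all genes, 17.6% had both IRI values below both control-miRNA values.

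Genes that work beside the carriers were called in both directions in IRI against sham, where 18.3% of all genes were called. Of 22 other mitochondrial transporters 3 rose and 5 fell, among them the proton carriers Ucp2 (2.00 ± 0.39, limma adjusted p = 0.0176) and Ucp3 (2.03 ± 0.41, adjusted p = 0.0186), the serine-carrier relative Sfxn2 (-1.62 ± 0.17, adjusted p = 0.00217) and the pyruvate carrier subunit Mpc2 (-0.99 ± 0.18, adjusted p = 0.0138). Of 12 genes of the machinery that imports carriers into the membrane, Timm10 alone rose (0.59 ± 0.15, adjusted p = 0.0426) and none fell. Of 19 enzymes that make or use the carried metabolites 6 rose and 4 fell. The arginine-degrading Arg2 differed by 4.89 ± 0.47 (adjusted p = 0.00177), and the folate enzymes Mthfd2 by 2.26 ± 0.32 (adjusted p = 0.0062) and Mthfd1l by 1.83 ± 0.33 (adjusted p = 0.0136). Of 11 regulators of mitochondrial genes Esrrb fell (-1.87 ± 0.44, adjusted p = 0.0312), and the coactivator Ppargc1a differed by -1.40 ± 0.39 without passing the test (adjusted p = 0.0513).

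The same lists in mimic against sham, where 28% of all genes were called, held 0 rises and 5 falls among the 22 other transporters, 1 and 2 among the 12 import genes, 4 and 6 among the 19 enzymes, and 0 and 2 among the 11 regulators. In control-miRNA against sham, where 17.3% of all genes were called, they held 3 and 4, 0 and 0, 6 and 3, and 0 and 0, in the same order. Of the other cell types, 3 of 6 endothelial markers and 3 of 5 macrophage markers were called higher in mimic against IRI. Over all genes, 10.5% were called higher in that comparison, and 0% were called with array brightness as a covariate. Macrophage markers summed to 34 and 68.4 times the 75th percentile in mimic, 15.3 and 20.1 in control-miRNA, 14.8 and 13.1 in IRI, and 45.7 and 32.5 in sham kidneys. Itgam, the highest of the 5 on every array, weighs most in that sum. Cd68 went another way, with 2.42 and 2.23 in mimic, 1.76 and 1.56 in control-miRNA, 1.68 and 1.88 in IRI, and -0.68 and -1.16 in sham kidneys. The part of these markers in the carriers' values was not tested.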

How the data were processed

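Total RNA from 30 mg of left kidney was labelled with Cy3 from 50 ng, per the labels' protocols, and all 8 arrays lay on 1 slide with 1 scan time. Agilent Feature Extraction 12.0.3.1 produced the deposited files, per the submitters' processing notes. Its processed signal is an intensity with background subtracted inside each array, and per the file headers no scaling across arrays was applied. A linear ratio fills the deposited series table, and from its values this is each probe over its median across arrays, with the earlier scaling not given in the sources used here. Its column medians were 0.992 to 1.02, and it served only as an alternative. Control and outlier spots were left out, 0 spots were saturated, and log2 of the processed signal minus the log2 75th percentile was averaged per probe.

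A probe was kept if it was well above background in both mice of any group, which held for 32218 of 56605 probes and 87 of the members' 105. The kept probe with the highest mean stood for its gene. limma 3.58.1 in R 4.3.3 (lmFit, eBayes) estimated group means from all 8 arrays jointly, and p-values were Benjamini-Hochberg adjusted over 21264 genes. The test was tried on simulated data in which each gene had the same spread in every group. The mimic mice differed most from each other, so that trial cannot show how the test handles the mimic comparisons. Probe names are those of the array design. Slide row 1 held sham and IRI arrays and row 2 the injected groups, so row and injection cannot be told apart. The members, gene lists and tests were chosen with earlier results of these data known. The members called in any comparison, Slc25a4, Slc25a5 and the 3 smallest p-values where nothing was called are given per array, and up to 4 genes by smallest p for each other list. One gene that this rule would name is not reported here.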

Additional observations from a re-analysis of the deposited data

How the results depend on the processing

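Results are limited by 2 mice a group and, for the mimic, by dim arrays. Over 52 single-gene results in up to 19 other settings (956 comparisons), 687 kept direction and side of the threshold, 234 kept direction but lost the call, 13 gained one and 22 turned sign. Slc25a24 and Slc25a25 were called in every setting in IRI against sham. No paired analysis was possible because the groups share fewer than 2 mouse numbers. The cause of the changes below was not tested, except that leaving arrays out also leaves fewer samples.

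Called members in IRI against sham numbered 7 (18.3% of all genes), and 4 with median scaling (17.6%), 4 with no filter on dim probes (6.65%), 4 with slide column as a covariate (10.3%), 15 in a fit of only the 2 groups (31.9%), and 13 without both mimic arrays (28%), a setting chosen after seeing the data. Percentages are again of all genes below. In mimic against sham the count was 15 (28%), and 1 with the brightness covariate (0.541%) and 8 in a fit of only the 2 groups (14.3%). In control-miRNA against sham it was 6 (17.3%), and 3 with median scaling (15.2%), 3 with no filter (6.19%) and 2 with slide column (9.23%). In mimic against control-miRNA it was 0 (0%), and 12 with normexp background correction (27.4%) and 4 with only probes above background on all arrays (8.28%). In mimic against IRI it was 7 (16%), and 17 with normexp (48.6%), 4 with quantile normalization (10.8%), 21 with median scaling (31.7%), 11 with no filter (32.4%), 4 with the deposited series table (10.8%), and 0 with brightness, slide column or only the 2 groups (0% each). In control-miRNA against IRI it was 0 in each setting. When single arrays were left out, the share of all genes called moved with the members' count. In each comparison below, that share was lowest where the count was lowest and highest where it was highest. The ranges are therefore not particular to the members. Leaving out single arrays gave 2 to 13 in IRI against sham, 3 to 21 in mimic against sham, 1 to 9 in control-miRNA against sham, and 0 to 18 in both mimic against control-miRNA and mimic against IRI.

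Most sign changes were those of Slc25a4, where the probe that stands for the gene gave differences near 0. The mean of its 2 probes gave -0.451 in mimic against sham, -0.409 in mimic against control-miRNA and -0.431 in mimic against IRI. It turned to 0.067 in IRI against sham with median scaling. In mimic against sham it turned to 0.195 with brightness and, over single arrays left out, ranged from -0.101 to 0.0193 (without mimic 7). In control-miRNA against sham it turned to -0.0613 with quantile normalization, -0.0419 with the mean of probes, -0.0598 with the series table, -0.00418 with brightness, -0.00704 without sham 1 and -0.175 without control-miRNA 1, in a range over single arrays left out that reached 0.202. In mimic against control-miRNA it turned to 0.199 with brightness, 0.00605 without mimic 7 and 0.134 without control-miRNA 1, in a range that began at -0.243. In mimic against IRI it turned to -0.0988 with normexp, -0.394 with median scaling and that value with the mean of probes, and in control-miRNA against IRI to -0.0214 with the mean of probes and -0.0685 without control-miRNA 1, in a range that reached 0.308. With the mean of probes Slc25a3 turned to 0.0626 in mimic against sham and Slc25a40 to 0.0383 in mimic against control-miRNA. With brightness Slc25a5 turned to 0.336 in mimic against control-miRNA and 0.257 in mimic against IRI, and Slc25a23 to -0.439 in mimic against IRI.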
